A study of Mus musculus with 6 samples.

Results

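The genes described here are 36 that encode the antioxidant defence of the cell: the Nrf2 regulators, the glutathione and thioredoxin systems, the peroxide-removing enzymes and the pentose phosphate enzymes that supply their NADPH. They were taken by symbol from a table of 53647 genes, and each of the 36 symbols matched 1 row. The RNA came from macrophages of pancreatic ductal adenocarcinomas grown orthotopically, that is in the pancreas itself, in C57BL/6 mice, and sorted by their expression of the chemokine receptor Cxcr4. There were 3 Cxcr4+ and 3 Cxcr4- libraries, with no further treatment named, and the comparison asks how the sorted populations differ. The genotype entry of the labels holds the sort (Cxcr4+ or Cxcr4-), not an allele, and the mice's age, the tumour cells implanted, the other sort markers and any pooling of mice were not given in the sources used here. Nothing in the labels ties a library to a mouse, so a p-value here reflects only how these libraries spread, which may be technical.

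Reactive oxygen species are made by mitochondria and by the phagocyte oxidase, and macrophages must survive the oxidants they release. Superoxide dismutases turn superoxide into hydrogen peroxide. Catalase, glutathione peroxidases and peroxiredoxins remove the peroxide, and the last are recharged by thioredoxin. Glutathione reductase and thioredoxin reductase draw on NADPH, which the pentose phosphate pathway and malic enzyme regenerate. Many of these genes are induced by the transcription factor Nrf2, which Keap1 holds back.

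The libraries held 46444934 to 55740671 estimated counts. Lyz2 stood at 5337 to 7797 FPKM (fragments scaled to gene length and library depth), Cd68 at 1024 to 1247 and Csf1r at 70.1 to 94.5, while the complement genes C1qa and C1qb, which many tissue macrophages express, reached at most 0.435 and 1.22. C1qa had 0.361 to 0.435 with Cxcr4+ against 0 to 0.137 with Cxcr4-, and C1qb 0.176 to 1.22 against 0 to 0.0619. Mertk went the other way, with 1.33 to 1.79 against 1.88 to 2.02. The summed FPKM of 10 macrophage markers ran from 7375 to 9204 against 6570 to 7841. Of the 10, 6 were higher in Cxcr4+ by the edgeR estimate and 0 passed an adjusted p of 0.05, against 0.0312% of all tested genes. The sorted gene itself, Cxcr4, had 9.18, 9.05 and 9.59 FPKM in Cxcr4+ and 8.56, 5.97 and 7.73 in Cxcr4- libraries, so its mRNA separated the groups by little (0.27 ± 0.19 on the log2 scale, fold change and SE, with an adjusted p of 0.999 in edgeR). The summed FPKM of 10 epithelial or tumour markers ran from 1.84 to 3.38 with Cxcr4+ against 3.60 to 6.34 with Cxcr4-, and 0 of the 10 were at 0 in every library. For 11 fibroblast markers it was 3.55 to 17.4 against 2.37 to 3.31, with Lum at 0 throughout, so neither sum overlapped between the groups. The 17.4 was that of Cxcr4+ replicate 1 alone. There Col1a1 had 5.83 and Sparc 5.20 FPKM, against 0.527 and 1.80 in Cxcr4+ replicate 2 and 1.13 and 1.44 in replicate 3. The sums for 10 neutrophil markers were 6.66 to 9.34 and 7.15 to 10.2, with S100a9 and Camp at 0. T or NK cell markers summed to at most 0.102, with 5 of 9 at 0 (Trac, Cd8a, Ncr1, Klrb1c and Nkg7), endothelial markers to at most 0.431, with 1 of 6 at 0 (Erg), and acinar markers to at most 0.726, with 6 of 7 at 0. In the B cell list Ighm alone had 30.5 to 35.5 FPKM and each of the other 5 genes at most 0.614. The part of these cells in the results below was not tested.

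Most of these genes were expressed at high levels, and no member passed the test between Cxcr4+ and Cxcr4- macrophages. Of the 36 members, 35 passed the filter on low counts, and their mean FPKM had a median percentile of 90.6 among all 16031 tested genes. In edgeR's quasi-likelihood test 0 of the 35 passed an adjusted p of 0.05, against 0.0312% of all tested genes, and 0 passed in DESeq2, against 0.436% there. At an unadjusted p under 0.05 there were 3 (Blvra, Prdx1 and Prdx6), against 4.85% of all tested genes. The log2 fold change, Cxcr4+ minus Cxcr4-, was positive for 11 members and negative for 24, with a median of -0.04, while 50.1% of all tested genes were positive and their median was 0.00041. Adjusted p values of the members ran from 0.953 to 0.9998 in edgeR.

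**Figure D1:**
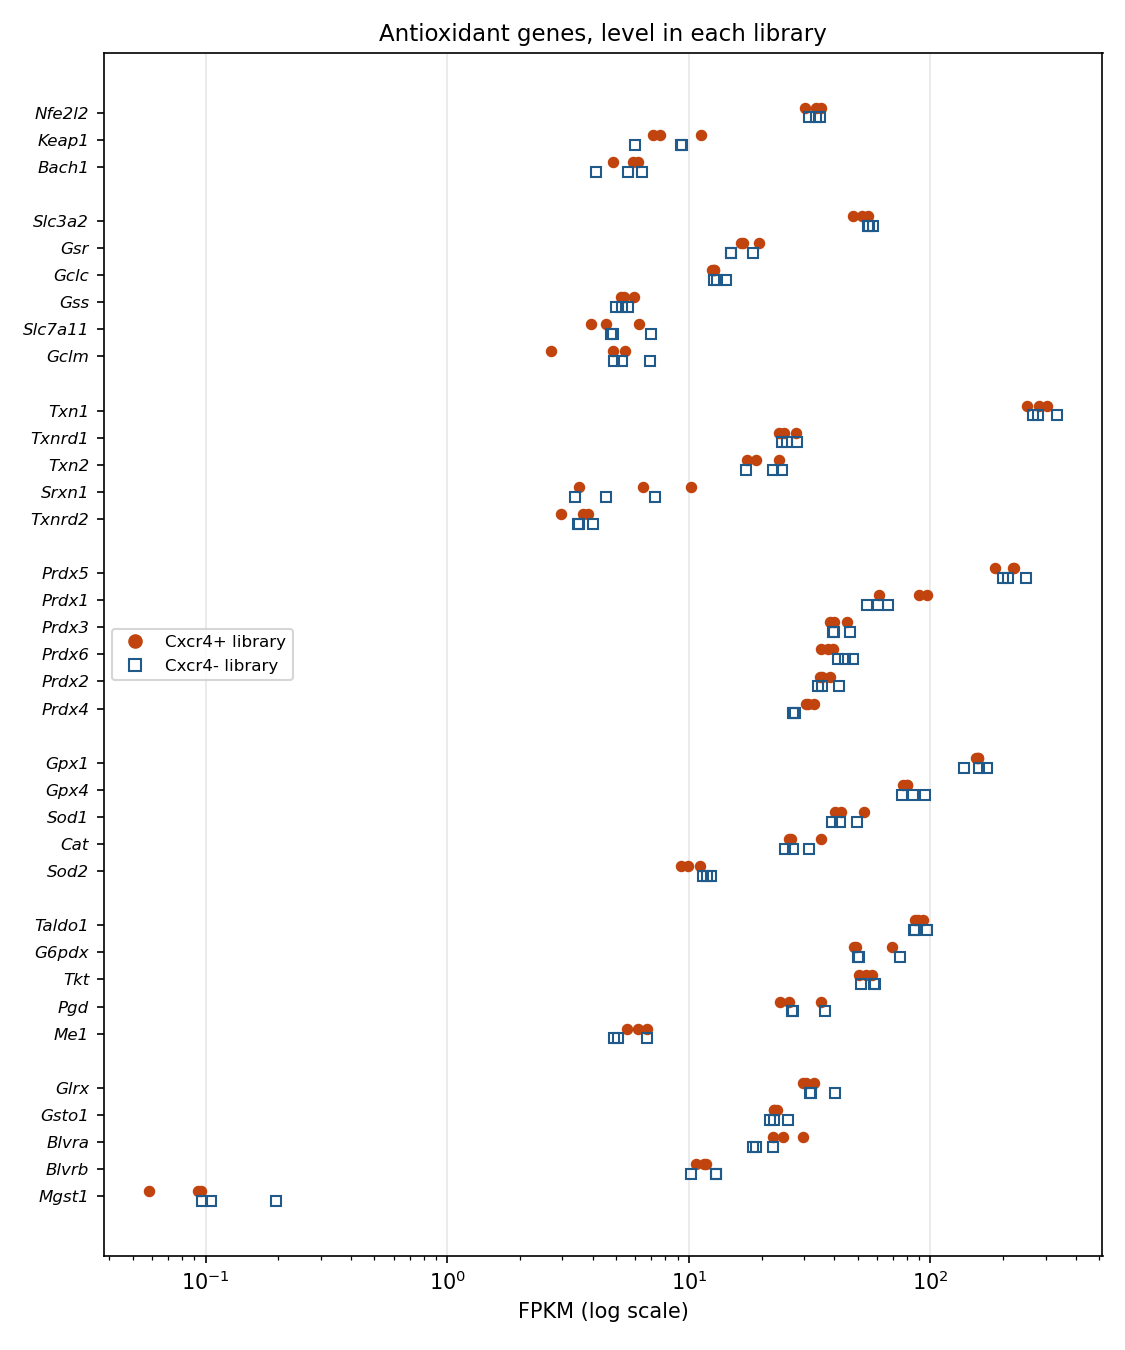
FPKM (log axis) of 35 members in each library, by role and then by mean level; filled circles are the 3 Cxcr4+ and open squares the 3 Cxcr4- libraries. Txn1, Prdx5 and Gpx1 lie above 100 FPKM in every library, Mgst1 lies below 0.2, and Nqo1, with 0 counts in 2 libraries, is not drawn.

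Moderate differences could be bounded only against the spread of these libraries, which may be technical. The 95% interval of the log2 fold change, not corrected for the number of genes, lay within a 2-fold change either way for 32 of the 35 members and within 1.5-fold for 29. The 3 with wider intervals were Gclm, Srxn1 and Mgst1. The median size of the log2 fold change was 0.08 for the members and 0.11 for all tested genes that averaged 1 FPKM or more. Within a group, the libraries of a member had a median SD of 0.14 on the log2 scale, against 0.17 for those genes. The 2 sets were not matched for level, the members having a median percentile of 90.6 in mean FPKM among all tested genes. A difference in bulk RNA cannot tell fewer cells of a type from less RNA per cell.

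**Figure D2:**
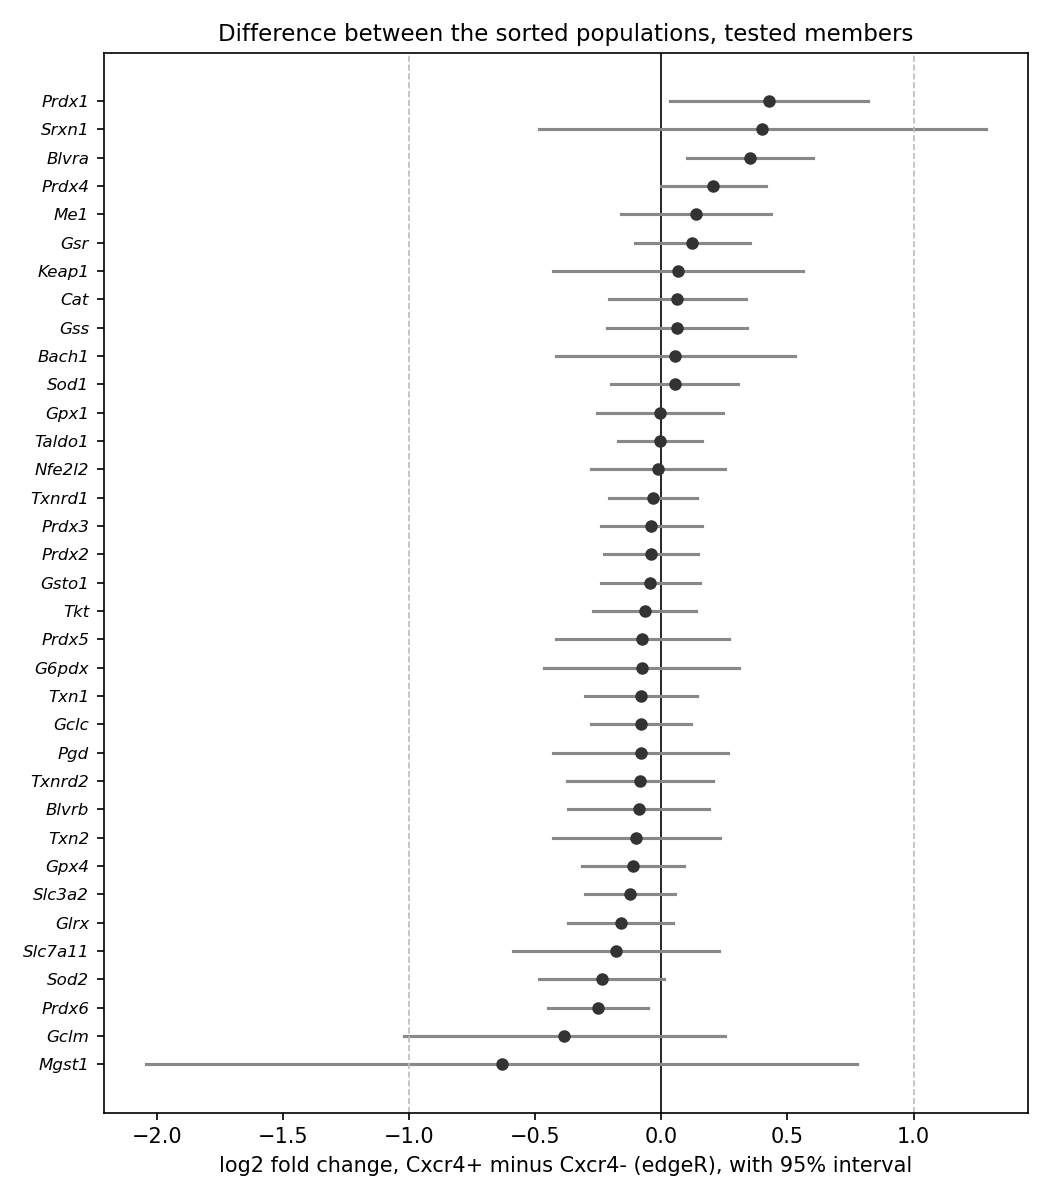
Log2 fold change (edgeR, Cxcr4+ minus Cxcr4-) of the 35 tested members with its 95% interval; dashed lines mark a 2-fold change. Intervals of Prdx1, Blvra and Prdx6 exclude 0 before adjustment, and those of Gclm, Srxn1 and Mgst1 cross a dashed line.

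The regulators were at like levels in the 2 groups. Nfe2l2, which encodes Nrf2, had 33.7, 30.4 and 35.4 FPKM in the Cxcr4+ and 33.5, 31.6 and 35.0 in the Cxcr4- libraries. The values overlapped, with a log2 fold change of -0.01 (95% interval -0.28 to 0.25). Keap1, the adaptor that marks Nrf2 for degradation, had 7.08, 11.3 and 7.62 against 9.25, 9.39 and 5.97 FPKM. Its libraries differed more within a group than the groups did, and its log2 fold change was 0.07 (interval -0.43 to 0.56). Bach1, a haem-sensing repressor that competes with Nrf2 for DNA, had 6.16, 4.84 and 5.87 against 5.61, 4.14 and 6.38 FPKM. It too overlapped, at 0.06 (interval -0.42 to 0.53).

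Nrf2 binds the antioxidant response element as a pair with a small Maf protein, so promoters were searched for its core, TGACNNNGC, which reads GCNNNGTCA on the opposite strand. The windows were RefSeq's, in GRCm38.p6, from 250 bases before to 50 after a start site. They held 33 of the members, with none for Gclc, Gsr and Prdx6. The core was present for 11 of the 33 (33.3%), against 16.7% of 10479 tested genes with a window; by window it was 11 of 43, against 12.4% of all 32851 windows of this length. The members are partly known Nrf2 targets, so this share describes the list and is not independent of how it was chosen. A match is not a binding site. The core shares letters with the AP-1 motif TGACTCA, which was contained in the matches of Prdx1 and Me1.

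The stretches below are shown for the higher-in-Cxcr4+ members of smallest p that hold the core (Blvra and Prdx1) and for 3 whose level was highest in the libraries numbered 2 of both groups (G6pdx, Txnrd1 and Sod1), which are described further on. Each is 60 bases upstream of the start site, 5′ to 3′ on the strand of the gene, in GRCm38.p6, with the 9-base match in capitals.
Blvra, chr2:127070582-127070641, forward strand: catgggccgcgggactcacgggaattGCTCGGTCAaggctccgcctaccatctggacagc
Prdx1, chr4:116685440-116685499, forward strand: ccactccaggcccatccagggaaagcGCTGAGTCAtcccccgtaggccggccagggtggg
G6pdx, chrX:74428904-74428963, reverse strand: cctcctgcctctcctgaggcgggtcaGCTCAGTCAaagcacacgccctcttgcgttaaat
Txnrd1, chr10:82859088-82859147, forward strand: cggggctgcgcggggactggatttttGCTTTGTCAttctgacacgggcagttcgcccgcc
Sod1, chr16:90220680-90220739, forward strand: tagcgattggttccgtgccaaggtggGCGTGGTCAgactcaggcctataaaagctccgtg
All 5 matches read the core on the strand opposite to the gene. They end 40 bases before the start site in Blvra, 124 in Prdx1, 48 in G6pdx, 83 in Txnrd1 and 47 in Sod1.

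Glutathione synthesis was represented by 6 members, of which 4 were negative, 0 passed the test and 0 had groups that did not overlap by FPKM. Slc3a2, the heavy chain shared by several amino acid exchangers, had both the highest level and the smallest p of them. Its values were 47.9, 55.3 and 52.3 FPKM in Cxcr4+ and 55.7, 58.0 and 55.0 in Cxcr4- libraries. Only Cxcr4+ replicate 2 reached into the Cxcr4- range, with a log2 fold change of -0.12 (SE 0.08, adjusted p = 0.999 by edgeR). Slc7a11, the cystine-importing chain that pairs with Slc3a2, stood far lower, at 3.95 to 6.98 FPKM. Its log2 fold change of -0.18 was -0.35 without Cxcr4+ replicate 2, -0.06 without Cxcr4+ replicate 3 and -0.02 without Cxcr4- replicate 2. Gclc, the catalytic subunit of glutamate-cysteine ligase, varied little, with 12.4 to 12.7 against 12.7 to 14.3 FPKM.

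Gclm, the modifier subunit of the same ligase, was the most uneven gene of glutathione synthesis. It had 4.85, 2.68 and 5.45 FPKM in Cxcr4+ and 4.89, 6.93 and 5.31 in Cxcr4- libraries, so the lowest and the highest value were both in a library numbered 2. The ratio of Gclc to Gclm was 4.63 in Cxcr4+ replicate 2 and 2.06 to 2.62 in the other 5 libraries. The log2 fold change of -0.38 (95% interval -1.02 to 0.25) became -0.11 without Cxcr4+ replicate 2. Gclm shares 14775 bases with Gm17494 on the other strand, a gene with 43868 counts against 10870 for Gclm over all libraries. Whether the counting used strand was not given in the sources used here, so reads of the pair may not be told apart. Glutathione synthetase Gss (4.99 to 5.95 FPKM) and glutathione reductase Gsr (14.9 to 19.6) had log2 fold changes of 0.06 and 0.12, and Gss lies over Acss2 for 13800 bases in the same way.

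In the thioredoxin system 4 of 5 members were negative and 0 passed. Txn1, the cytosolic thioredoxin, was the most abundant of all 36 genes, with 251, 305 and 280 FPKM in Cxcr4+ and 280, 334 and 267 in Cxcr4- libraries. The groups overlapped, and the log2 fold change was -0.08 (95% interval -0.30 to 0.14). Txnrd1, its reductase, had 23.7 to 27.8 against 24.2 to 28.0 FPKM, and the ratio of Txn1 to Txnrd1 stayed between 10.5 and 11.9 over the 6 libraries. The mitochondrial pair was lower, Txn2 at 17.2 to 24.3 and Txnrd2 at 2.96 to 4.02 FPKM.

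Srxn1, sulfiredoxin, which repairs over-oxidized peroxiredoxins, varied most between libraries of 1 group, with an SD of 0.60 on the log2 scale. It had 3.53, 10.2 and 6.43 FPKM in Cxcr4+ and 4.55, 7.23 and 3.37 in Cxcr4- libraries. Each group held a value near 3.5 and its highest value in the library numbered 2. The log2 fold change was 0.40 (95% interval -0.48 to 1.29), and 0.02 without Cxcr4+ replicate 2.

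Peroxiredoxins held 2 of the 3 members with an unadjusted p under 0.05 and went in opposite directions, while 0 of 6 passed the adjusted test. Their summed level ran from 424 to 454 FPKM with Cxcr4+ against 414 to 458 with Cxcr4-, so the totals overlapped. Prdx5, found in mitochondria, peroxisomes and cytosol, made up 42.5 to 54.2% of that sum. It had 220, 185 and 222 FPKM against 249, 199 and 210, with the lowest value of each group in the library numbered 2 and overlap between groups.

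Prdx1, a cytosolic peroxiredoxin that is a known Nrf2 target, had 61.0, 96.5 and 89.6 FPKM in Cxcr4+ and 66.9, 60.4 and 54.9 in Cxcr4- libraries. It is described in full because of its unadjusted p, a choice made after its values were seen. In Cxcr4+ replicates 2 and 3 it was above every Cxcr4- library, while Cxcr4+ replicate 1 lay among them. The means were 82.4 ± 18.8 and 60.7 ± 6.01 FPKM (SD, n = 3 each), with a log2 fold change of 0.43 (SE 0.17, adjusted p = 0.998 by edgeR). Its unadjusted p, 0.0364 in edgeR, was 0.0192 in DESeq2 and 0.0568 in limma-trend on log2(FPKM + 1). In edgeR it was 0.0351 with library totals alone and 0.0341 with no filter on low counts. It was above 0.05 in edgeR without Cxcr4+ replicate 2 or 3 or Cxcr4- replicate 2 or 3 (0.0961 to 0.119). Prdx1 made up 14.4 to 22.2% of the peroxiredoxin sum with Cxcr4+ against 13.25 to 14.6% with Cxcr4-.

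Prdx6, a 1-Cys enzyme that reduces phospholipid hydroperoxides and uses glutathione, had 35.2, 39.4 and 37.7 FPKM in Cxcr4+ and 41.2, 44.3 and 47.7 in Cxcr4- libraries. All 3 Cxcr4+ values lay below all 3 Cxcr4- values, with a log2 fold change of -0.25 (SE 0.08, adjusted p = 0.993 by edgeR). Its unadjusted p was 0.0190 in edgeR and 0.0141 in DESeq2. In edgeR it became 0.0660 when Cxcr4+ replicate 1 was left out and 0.0803 when Cxcr4- replicate 3 was. The ratio of Prdx1 to Prdx6 ran from 1.73 to 2.45 with Cxcr4+ against 1.15 to 1.62 with Cxcr4-; this ratio was formed after the values were seen and has no test. Prdx4, the peroxiredoxin of the endoplasmic reticulum, had 32.9, 31.2 and 30.4 against 27.5, 27.3 and 26.9 FPKM. Its groups did not overlap either, in the other direction, with a log2 fold change of 0.21 (SE 0.09, adjusted p = 0.999 by edgeR).

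Prdx2, a cytosolic enzyme that red blood cells hold in large amounts, had 34.8, 38.5 and 35.4 against 34.2, 41.8 and 35.6 FPKM. The groups overlapped, and the log2 fold change was -0.04. It shares 351 bases with Junb on the other strand. Erythroid markers were near 0 beside it, with a summed level of 0.0129 to 1.16 FPKM against 0.0181 to 0.116. Prdx3, of mitochondria, stood at 38.3 to 46.6 FPKM (log2 fold change -0.04).

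**Figure D3:**
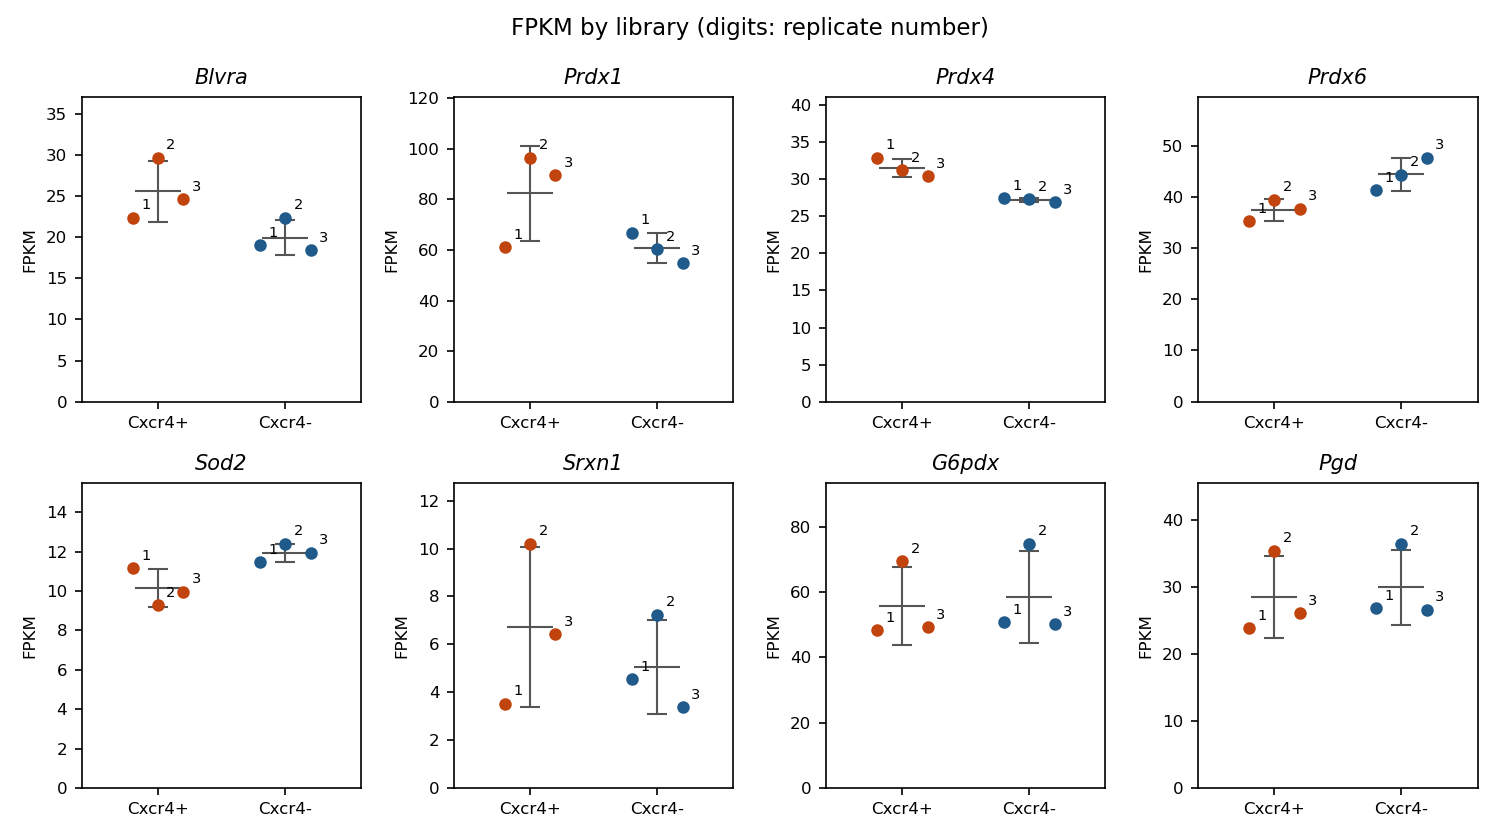
FPKM of 8 members in each library, with the group mean and SD (n = 3 each); digits give the replicate number and each axis starts at 0. Prdx4 is higher in every Cxcr4+ library and Prdx6 and Sod2 are lower, while Srxn1, G6pdx and Pgd are highest in the library numbered 2 of both groups.

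Among catalase, the dismutases and the glutathione peroxidases 3 of 5 members were negative and 0 passed. Sod2, the mitochondrial manganese dismutase, had 11.2, 9.28 and 9.96 FPKM in Cxcr4+ and 11.5, 12.4 and 11.9 in Cxcr4- libraries. The groups did not overlap, 11.2 lying below 11.5 at the edge, with a log2 fold change of -0.24 (SE 0.11, adjusted p = 0.999 by edgeR) that was -0.15 without Cxcr4+ replicate 2. Sod1, the cytosolic copper and zinc enzyme, was more abundant by FPKM and overlapped, at 45.4 ± 6.84 against 43.6 ± 5.53 (SD, n = 3 each). Cat, catalase, had 26.4, 35.3 and 26.0 against 25.1, 31.4 and 27.0 FPKM, with the library numbered 2 highest in each group and a log2 fold change of 0.06.

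Gpx1, the main cytosolic glutathione peroxidase, was the most abundant of this set. It had 158, 154 and 157 FPKM in Cxcr4+ and 171, 160 and 138 in Cxcr4- libraries, and the Cxcr4- values lay on both sides of the Cxcr4+ ones. The log2 fold change was -0.0044 (95% interval -0.25 to 0.25) and positive in limma-trend. Gpx4, which removes lipid peroxides and protects cells from ferroptosis, had 77.0 to 80.0 against 76.6 to 94.5 FPKM (log2 fold change -0.11). Its pseudogene Gpx4-ps2 reached 30.6 FPKM, so reads of the 2 may be split between them.

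The pentose phosphate enzymes were abundant, and 0 of 5 members in this group, malic enzyme included, passed. Taldo1, transaldolase of the non-oxidative branch, had the highest level, with 86.3, 93.0 and 88.8 FPKM in Cxcr4+ and 86.0, 97.1 and 85.2 in Cxcr4- libraries. The groups overlapped, and the interval of -0.17 to 0.16 was the narrowest of the 35. Tkt, transketolase, had 50.7 to 57.6 against 51.7 to 58.9 FPKM. Me1, cytosolic malic enzyme, had the smallest p of the group, with 6.17, 6.70 and 5.54 against 5.10, 6.72 and 4.90 FPKM and a log2 fold change of 0.14 (adjusted p = 0.9997 by edgeR). That value became 0.06 when Cxcr4- replicate 3 was left out and 0.25 when Cxcr4- replicate 2 was.

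G6pdx and Pgd, the dehydrogenases that make NADPH in the oxidative branch, differed more by replicate number than by sort. Both were chosen for full description after their values were seen. G6pdx had 48.3, 69.4 and 49.2 FPKM in Cxcr4+ and 50.7, 74.8 and 50.2 in Cxcr4- libraries. Pgd had 23.9, 35.4 and 26.1 against 26.9, 36.4 and 26.6. In both groups the library numbered 2 stood above the others, which lay close together, while the ratio of G6pdx to Pgd stayed at 1.89 to 2.05 in all 6 libraries. G6pdx shares 19712 bases with Ikbkg on the other strand, a gene with 9636 counts against 60683 for G6pdx.

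That pattern reached further into the list. After TMM scaling, which removes the effect of a few very abundant genes on library size, both libraries numbered 2 lay above the other 4 for 11 of the 35 tested members, against 16.5% of all tested genes. The 11 were G6pdx, Pgd, Me1, Slc7a11, Gsr, Txnrd1, Srxn1, Prdx2, Prdx3, Cat and Sod1. Both lay below the other 4 for Nfe2l2, Bach1, Gss and Prdx5, against 16.0% of all tested genes. On the FPKM scale the counts were 18 and 4, against 26.2% and 9.74%. The TMM factors were 1.05 in both libraries numbered 2 and 0.961 to 0.985 in the other 4. The labels do not say what the number stands for, so this is a description with no test. The response element core was in the window of 6 of 10 of the first set with a window and of 5 of 23 other members, while over all tested genes the shares were 16.2% and 16.9%. The split was formed after the values were seen, from a list that partly holds known Nrf2 targets. A link between the core and the pattern was not tested.

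**Figure D4:**
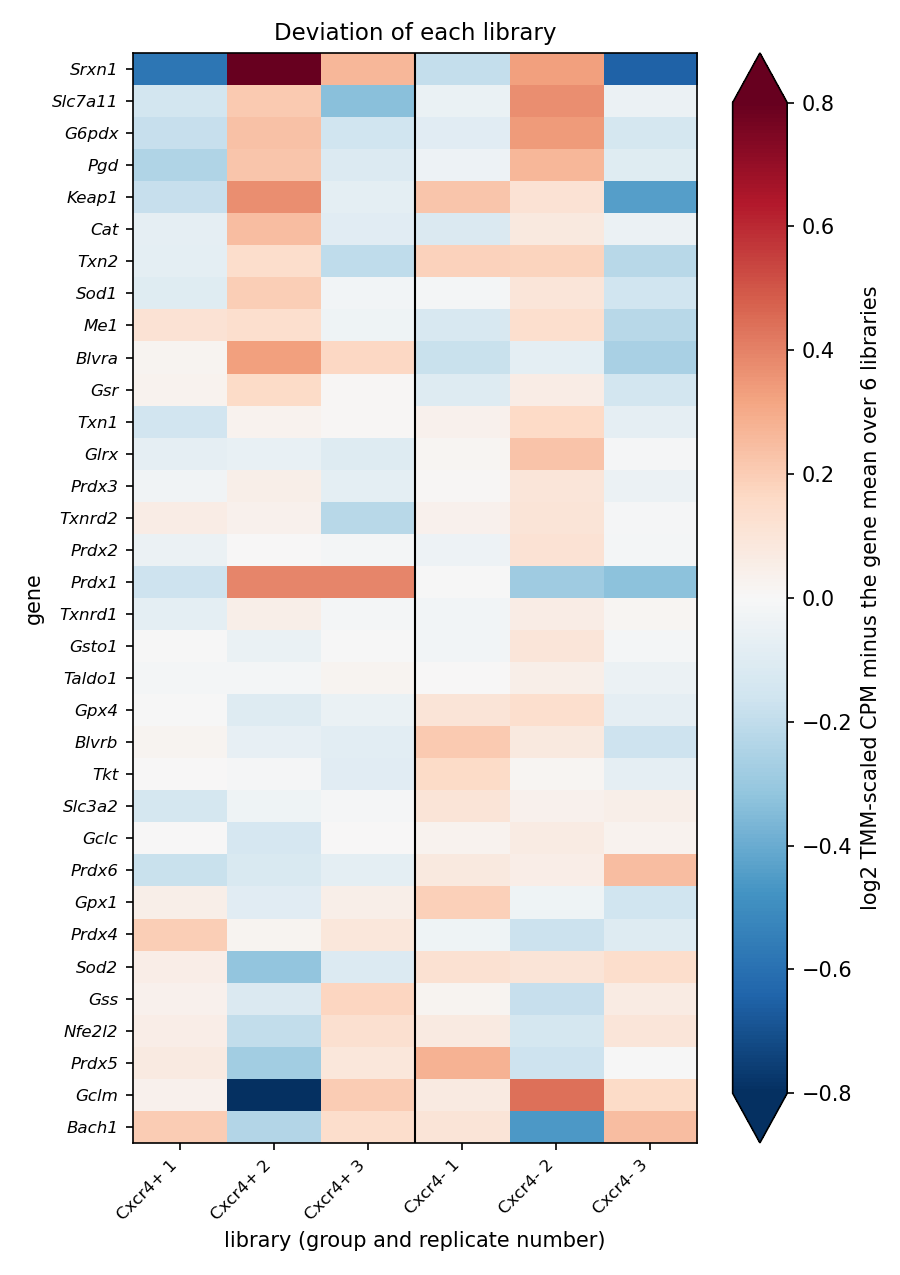
Deviation of each library from the mean of the gene, in log2 TMM-scaled CPM, for the 34 members with a mean of at least 1 FPKM; rows run from genes high to genes low in the libraries numbered 2, and colours saturate at 0.8. Srxn1, Slc7a11, G6pdx and Pgd are red in both columns numbered 2, and Gclm is dark blue in Cxcr4+ replicate 2 and red in Cxcr4- replicate 2.

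The detoxifying enzymes held the member of smallest p. Blvra, biliverdin reductase A, which makes the antioxidant bilirubin from biliverdin, had 22.4, 29.7 and 24.6 FPKM in Cxcr4+ and 19.0, 22.4 and 18.4 in Cxcr4- libraries. The groups were separated by the small step from 22.355 to 22.366, and the means were 25.6 ± 3.73 and 19.9 ± 2.12 (SD, n = 3 each). This gave a log2 fold change of 0.35 (SE 0.11, adjusted p = 0.953 by edgeR), from 0.27 to 0.42 when any 1 library was left out. Blvrb, biliverdin reductase B, also abundant in red blood cells, had 11.6, 11.7 and 10.8 against 13.0, 12.9 and 10.2 FPKM. It overlapped, with a log2 fold change of -0.09, and the ratio of Blvra to Blvrb ran from 1.93 to 2.53 with Cxcr4+ against 1.46 to 1.80 with Cxcr4-, formed after the values were seen.

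Glrx, glutaredoxin, which removes glutathione from proteins, was the most abundant of these enzymes, with 30.4, 33.1 and 29.7 against 31.8, 40.4 and 32.0 FPKM. Cxcr4+ replicate 2 alone reached into the Cxcr4- range, with a log2 fold change of -0.16 (SE 0.09, adjusted p = 0.999 by edgeR) that was -0.08 without Cxcr4- replicate 2. Gsto1, an omega-class glutathione transferase, had 22.4 to 23.3 against 21.8 to 25.9 FPKM.

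The quinone reductase Nqo1, a widely used Nrf2 target, was barely detected. It had 8, 26 and 4 counts in Cxcr4+ and 0, 0 and 8 in Cxcr4- libraries, below the filter, so it was not tested. The microsomal transferase Mgst1 was as low, with 8, 12 and 12 against 12, 22 and 12 counts. By FPKM its groups did not overlap (0.0584, 0.0955 and 0.0929 against 0.0969, 0.195 and 0.105), although libraries of both groups had 12 counts at the edge, with a log2 fold change of -0.63 (95% interval -2.04 to 0.78). Without Cxcr4- replicate 2 that was -0.35, and limma-trend on log2(FPKM + 1) gave -0.06. Haem oxygenase Hmox1, another Nrf2 target that is no member and was chosen after its values were seen, stood at 687 to 848 FPKM over the same libraries.

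By overlap of FPKM alone, 2 tested members were higher in every Cxcr4+ library (Blvra and Prdx4), against 5.5% of all tested genes, and 3 were lower (Prdx6, Sod2 and Mgst1), against 4.87%. In either direction that is 5 of 35, beside 10.4% of all tested genes. The count depends on the scale. After TMM scaling Slc3a2, Gclc and Glrx were also lower in every Cxcr4+ library, and the share over all genes is not given on that scale.

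Among other genes of the same pathways no gene passed the adjusted test either. Of 82 listed, 76 were tested, 38 were positive and 38 negative, and the median log2 fold change was -0.0013. In edgeR 0 passed, against 0.0312% of all tested genes, and 3 had an unadjusted p under 0.05, against 4.85%. By overlap of FPKM alone, 4 were higher in every Cxcr4+ library, against 5.5% of all tested genes, and 3 were lower, against 4.87%. The smallest p among other Nrf2-associated genes was that of Mafg, a small Maf partner of Nrf2, with 34.4, 35.5 and 34.6 against 38.9, 41.6 and 38.8 FPKM. All 3 Cxcr4+ values were the lower ones, with a log2 fold change of -0.19 (SE 0.07, adjusted p = 0.998 by edgeR). In the list of other antioxidant genes it was that of the metallothionein Mt2, at 1610 ± 92.9 against 1927 ± 213 FPKM (log2 fold change -0.26, adjusted p = 0.993 by edgeR). Mt2 overlapped between groups, while its neighbour Mt1, which also had an unadjusted p under 0.05, did not, with 640 to 682 against 758 to 883 FPKM (-0.30).

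The remaining lists held no unadjusted p under 0.05. In them the smallest p belonged to Pgls, the lactonase of the pentose phosphate pathway (log2 fold change -0.20), to Sesn1, a sestrin (-0.30), and to Gpx8, an endoplasmic reticulum peroxidase with only 2 to 20 counts in a library. By list, 7 of 16 other Nrf2-associated genes were positive, 9 of 21 other glutathione genes, 9 of 15 thioredoxin and methionine sulfoxide genes, 6 of 13 NADPH genes and 7 of 11 further antioxidant genes.

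In GRCm39, the build of the deposited table, the members singled out above lie at the following places, given as whole gene spans with introns. Blvra is on the forward strand of chromosome 2 at 126912585 to 126939004, and Prdx1 on the forward strand of chromosome 4 at 116542741 to 116558019. On the reverse strand lie Prdx4, from 154106914 to 154123750 of chromosome X, and Prdx6, from 161067682 to 161078789 of chromosome 1. Sod2 is on the forward strand of chromosome 17 at 13225733 to 13256285 and Srxn1 on that of chromosome 2 at 151947436 to 151951242. G6pdx occupies 73453089 to 73472800 of chromosome X and Pgd 149234448 to 149251164 of chromosome 4, both on the reverse strand.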

How the data were processed

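RNA of the sorted cells was isolated in TRIzol according to the labels' protocols. The submitters' processing notes name cutadapt, HISAT2, StringTie and the build GRCm39, while versions, annotation release, counting settings and strand use were not given in the sources used here. Estimated counts were made and deposited by the authors, per the file headers, together with FPKM. These counts were whole numbers, so rounding changed 0 of them, but 43.2% of values from 1 to 20 were multiples of 4 (25% if spread evenly), so a count is not always 1 read. The authors' FPKM is scaled to length and depth and holds a small constant where the count is 0, which was replaced here by 0.

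Counts were fitted across all genes with edgeR 4.0.16 in R 4.3.3 (quasi-likelihood test, earlier dispersion method, filterByExpr with minimum count 10 and total 15, TMM scaling, group as the only term), with Benjamini-Hochberg adjustment over 16031 genes. The filter removed at most 0.0581% of a library's counts. The SE is the log2 fold change over the root of F, and 95% intervals use the fit's degrees of freedom. The procedure was also run on simulated counts with known changes, and the outcome of that run is not given here. Alternatives were limma 3.58.1, DESeq2 1.42.0, other scalings and filters, counts divided by 4, replicate blocks and leaving out each library; edgeR's bias-adjusted method, and FPKM for the pattern by replicate number, were added after seeing the data. Figures were drawn with matplotlib 3.10.9.

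Members and lists were chosen with earlier results of these data known. Full values were given for the member of smallest p and of highest mean FPKM in each role group, the regulators, Blvrb, Cat, Prdx2 and members whose groups did not overlap by FPKM, beside those named as chosen later. Of other pathway genes, the one of smallest p in each list was named. Of the member promoter windows, 40 of 43 continued into a GENCODE M21 transcript of the gene on the same strand and 0 on the opposite strand. No coordinates were converted between builds.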

Additional observations from a re-analysis of the deposited data

How the results depend on the processing

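Under 17 alternatives 0 members passed an adjusted p of 0.05, and the lowest adjusted p of any member was 0.337. Of 593 member values under these alternatives, 562 kept their direction; Mgst1 had no value in 2 of them, since a stricter filter and counts divided by 4 removed it. Gpx1 turned positive in limma-trend on log2(FPKM + 1) and log2(FPKM + 0.1), at 0.0070 and 0.0071, and Taldo1 did too, at 0.00043 and 0.00046. Over all genes, 63 passed in DESeq2 (27 higher, 36 lower), 2 in limma-trend on log2(FPKM + 1) and 5 in edgeR; leaving out 1 library gave 1 to 9, the 1 without replicate 1 of either group or Cxcr4+ replicate 3, and the 9 without Cxcr4+ replicate 2.

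With the replicate number as a replicate block, 0 genes and 0 members passed, and Gpx1 was at 0.0014. In this edgeR fit the unadjusted p of Prdx1 rose to 0.0807. Members under 0.05 in it were Blvra (0.0046), Prdx6 (0.0065), Prdx4 (0.0137), Sod2 (0.0295) and Slc7a11 (0.0343), each lower than without the block. Their adjusted p values in this edgeR fit ran from 0.450 to 0.514. The share of all tested genes under 0.05 in it is not given here, so these members cannot be set against it. Deviations of same-numbered libraries correlated at 0.102, 0.195 and 0.0951 over 11124 genes, and those of differently numbered libraries at -0.14 to 0.051. Each library thus correlated best with its own number. The labels do not state pairs, so the main fit did not take the numbers as pairs, and whether they mark pairs is not known. With the libraries numbered 2 as a block 4 genes and 0 members passed.

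Leaving out 1 library turned the sign of 15 members, each with a log2 fold change no larger than 0.09 in size with all libraries. The ranges were -0.083 to 0.078 for Nfe2l2, -0.13 to 0.20 for Keap1, -0.13 to 0.20 for Bach1, -0.012 to 0.13 for Gss, -0.14 to 0.0017 for Txnrd2, -0.071 to 0.011 for Prdx2, -0.074 to 0.0026 for Prdx3 and -0.17 to 0.057 for Prdx5. They were -0.053 to 0.12 for Cat, -0.037 to 0.12 for Sod1, -0.080 to 0.099 for Gpx1, -0.23 to 0.092 for G6pdx, -0.23 to 0.040 for Pgd, -0.030 to 0.019 for Taldo1 and -0.19 to 0.00029 for Blvrb. The cause was not tested. Txn1 (-0.13 to -0.02), Gsr (0.08 to 0.19) and Gpx4 (-0.17 to -0.07) kept their sign, with the values nearest 0 without Cxcr4- replicate 2 for Txn1 and Gpx4 and without Cxcr4+ replicate 2 for Gsr. Depth limits Nqo1 and Mgst1, at no more than 26 counts in a library.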

Other observations

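Genes of the pathway lists that varied most between libraries of 1 group are given as values, chosen after they were seen. Nfe2l1, an Nrf2 relative that controls proteasome genes, had 44.999, 45.7 and 12.1 FPKM in Cxcr4+ and 40.1, 8.02 and 16.2 in Cxcr4- libraries, so that 3 libraries stood near 40 or above and the other 3 at 16.2 or below, in both groups. Gpx3, a secreted glutathione peroxidase, had 5.89, 27.5 and 11.8 against 11.5, 3.72 and 3.09 FPKM, with overlapping groups. The thioredoxin inhibitor Txnip, by contrast, had 483 to 609 against 477 to 559 FPKM.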
